A study of Homo sapiens
Mus musculus with 24 samples.

Results

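The genes described here are 10 murine genes of white and brown adipocytes, measured in tumors of MDA-MB-231 cells, a human triple negative breast cancer line, grown in mice. They were taken by symbol from the table of murine transcripts. All 10 were present among its 16667 genes, and each passed the filter on low counts. White fat was represented by 8 genes (Adipoq, Lep, Retn, Cfd, Plin1, Cidec, Fabp4 and Lpl) and brown fat by 2 (Ucp1 and Cidea). Each of the 24 libraries is 1 tumor from 1 female B6/Rag1KO mouse, a strain that lacks mature T and B lymphocytes, and holds human transcripts of the injected cells with murine transcripts of the host tissue. The cells were placed under the skin at the base of the neck when the mice were 14 weeks old. On the high fat diet, 4 mice received vehicle by weekly saline injection (CTRL), 5 received doxorubicin with cyclophosphamide (Chemo), 5 received moringa seed concentrate in the diet (MC) and 6 received both (MC + Chemo). A further 4 mice on the lean diet had no intervention (Lean).

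White adipocytes store triglyceride in a single large droplet coated by perilipin and CIDEC, and they secrete adiponectin, leptin, resistin and adipsin. Brown adipocytes hold many small droplets and mitochondria rich in UCP1, which lets protons back across the inner membrane and releases energy as heat. In mice a large brown fat depot lies between the shoulder blades, close to the base of the neck, and is covered by white fat and next to skeletal muscle. Both kinds of cell express adiponectin, FABP4 and lipoprotein lipase, whereas UCP1 is characteristic of thermogenic adipocytes.

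Murine counts ran from 3664056 to 9892470 per library and made up 26.0 to 52.2% of all counts, with the highest share in MC 41. All 13 macrophage markers were detected in MC 6, the library with their lowest sum, and at least 12 of 13 endothelial markers in each library. CTRL 17 stood apart by its endothelial markers, with a mean log2 level of 4.83 against 5.99 to 7.88 in the other 23 libraries. An additional column cleanup was used for the RNA from Lean 3, MC 41 and MC 42, and MC + Chemo 5 carries MC in 1 label field and MC + Chemo in its title. Levels below are normalized counts, the read counts divided by the authors' size factor of each library. A 3′ method gives about 1 read per transcript, so levels of different genes are compared without a length correction.

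The adipokine genes were detected in nearly every tumor, at levels that differed greatly between tumors of the same group. Adipoq, which encodes adiponectin, stood at 7.68 in CTRL 17, 67.9 in CTRL 44, 307 in CTRL 31 and 408 in CTRL 70. In Chemo it was 49.4, 114, 352, 455 and 858 (Chemo 67, 19, 30, 34 and 33). In MC it was 43.5 in MC 42, 291 in MC 59, 404 in MC 48, 1168 in MC 6 and 5117 in MC 41. MC + Chemo ran from 34.8 in MC + Chemo 25 to 7069 in MC + Chemo 52, with a median of 693, and Lean held 12.5, 308, 496 and 1408 (Lean 54, 24, 3 and 21). The highest CTRL level lay just above the median of all libraries (378), and each other group overlapped with CTRL and had at least 1 tumor above it. Over the 24 libraries the highest level was 920 times the lowest.

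Lep, the gene of the satiety hormone leptin, was the least abundant adipokine gene with a median of 36.8. It was 0, 15.4, 58.9 and 70.4 in CTRL, 1.90 to 99.8 in Chemo, 5.36 to 308 in MC, 2.43 to 887 in MC + Chemo and 0, 14.4, 29.4 and 80.5 in Lean. The libraries without a Lep count were CTRL 17 and Lean 54, where 0 of 5876136 and 0 of 4205911 murine counts allow a level of up to 0.511 and 0.713 CPM, counts scaled to the murine total (3 counts, counting error only). Retn, which encodes resistin, had a median of 46.3, a highest level of 1206 in MC + Chemo 52 and no count in CTRL 17. Cfd, which encodes the complement protease adipsin, had a median of 1397 and ran from 31.7 in CTRL 17 to 35422 in MC + Chemo 52. Adipoq, Lep, Retn and Cfd were all highest in MC + Chemo 52, and CTRL 17 was lowest for Adipoq, Retn and Cfd and shared the absence of Lep counts with Lean 54.

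Leptin was also read relative to adiponectin. There were 5.92, 5.72 and 4.66 Lep counts per 100 Adipoq counts in Lean 3, Lean 21 and Lean 24, and 19.2, 22.6 and 17.2 in CTRL 31, CTRL 44 and CTRL 70. Lean 54 and CTRL 17 had no Lep count beside 10 and 8 Adipoq counts, so their ratio rests on very few reads. The ratio was 3.16 to 13.6 in Chemo, 5.33 to 14.1 in MC and 4.35 to 22.2 in MC + Chemo, and the ranges of Lean and of each obese group overlapped. Lean and CTRL overlapped only through CTRL 17, with no Lep count beside 8 Adipoq counts. The ratio of Lep to Adipoq was looked at after the values were seen and was not tested.

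The droplet genes were high in much the same tumors as the adipokines. Plin1, which encodes the perilipin that gates lipolysis at the droplet surface, was 9.60, 17.9, 100.4 and 269 in CTRL and 19.95, 26.4, 131, 198 and 239 in Chemo. It was 28.6, 77.7, 152, 867 and 3996 in MC, 20.2 to 2364 in MC + Chemo (median 295) and 11.3, 137, 199 and 558 in Lean. Cidec, whose product fuses droplets into the single large droplet of white fat, ran from 1.25 in Lean 54 to 2938 in MC 41 with a median of 85.8. Both genes were highest in MC 41 and second in MC + Chemo 52, the reverse of the order for Adipoq, Lep and Cfd. For Retn the second highest library was Lean 21, at 492.

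The genes of fatty acid supply had the highest medians of the set. Fabp4, the fatty acid carrier of adipocytes that macrophages and endothelial cells also express, had a median of 2511 and ran from 314 in CTRL 17 to 53119.7 in MC + Chemo 52. Lpl, which encodes the lipase that releases fatty acids from lipoproteins and is also made by muscle and macrophages, had a median of 1624 and ran from 294 in MC + Chemo 25 to 15414 in MC 41. The highest Lpl level was 52.5 times the lowest, the narrowest range among the 8 genes detected in every library.

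Nearly all reads of Ucp1, the uncoupling protein of thermogenic fat, came from 4 tumors. It was 27205 in MC 41, 5396 in MC 6, 2069 in MC + Chemo 52 and 488 in MC + Chemo 5. The next libraries were Lean 24 at 173 and CTRL 44 at 83.3, and the 20 libraries outside the top 4 had a median of 19.4. By group, Ucp1 was 6.76, 15.7, 27.8 and 83.3 in CTRL, 5.69, 15.6, 18.6, 25.7 and 30.3 in Chemo, and 14.2, 20.3, 50.8, 5396 and 27205 in MC. It was 11.6 to 2069 in MC + Chemo (median 33.4) and 13.1, 22.5, 33.6 and 173 in Lean. MC and MC + Chemo each had a pair of tumors far above all CTRL tumors and others within the CTRL range. The pair in MC + Chemo includes MC + Chemo 5, the library that carries MC in a label field.

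Cidea, the brown fat counterpart of Cidec at the droplet surface, was high in the same tumors. Its level was 10765 in MC 41, 2386 in MC 6, 1042 in MC + Chemo 52 and 215 in MC + Chemo 5, then 137 in Lean 24 and 93.5 in CTRL 44. It was 10.6, 11.3, 20.2 and 93.5 in CTRL, 11.4 to 26.2 in Chemo and 11.2, 12.5, 26.0 and 137 in Lean. These 4 tumors held 98.2% of all Ucp1 counts and 96.3% of all Cidea counts, against 68.8% of the Adipoq, 73.4% of the Plin1 and 50.8% of the Lpl counts. In the 4 tumors there were 39.6 to 50.3 Cidea counts per 100 Ucp1 counts, and in the other 20 there were 52.9 to 200.0, at far lower counts. In the plot of single libraries the MC and MC + Chemo columns of Ucp1 and Cidea split into high and low tumors, while those of the white genes spread more evenly.

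**Figure D1:**
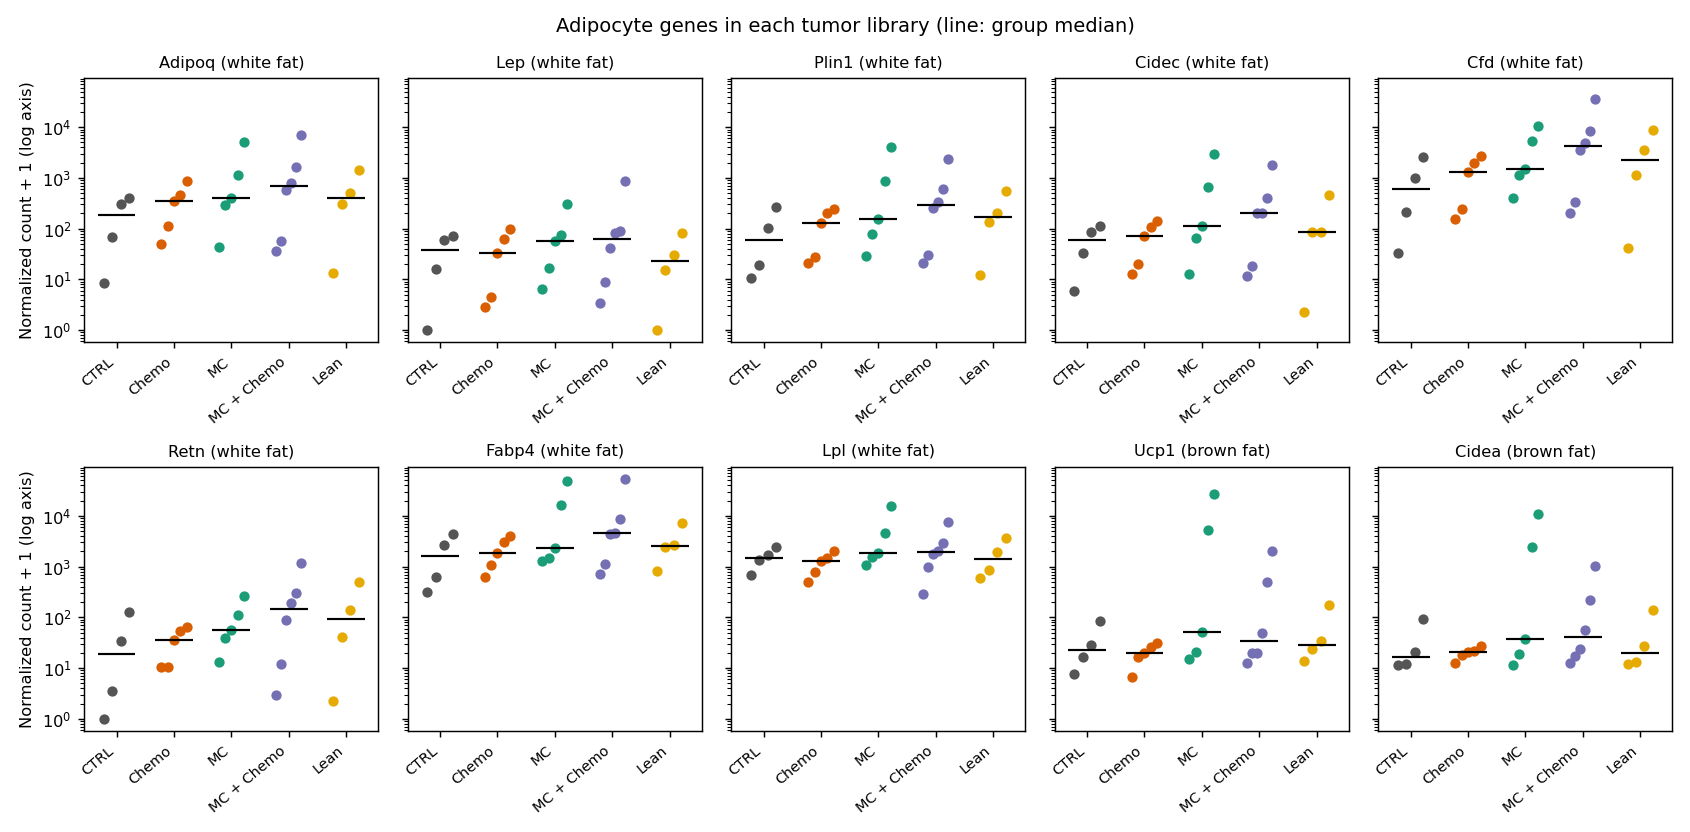
Normalized counts plus 1 (log axis) of the 8 white and 2 brown adipocyte genes in each of the 24 tumor libraries, by group, with a line at the group median. For Ucp1 the 4 libraries at 488 to 27205, from MC and MC + Chemo, sit above all others, of which the next is Lean 24 at 173.

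White and brown genes were then summarised as the mean log2(normalized count + 1) of each set. The white score had a median of 8.22 and ran from 3.98 in CTRL 17 to 12.32 in MC + Chemo 52. The brown score had a median of 4.50 and ran from 3.19 in Chemo 34 to 14.06 in MC 41. By group the mean white score (± SD) was 6.76 ± 2.20 for the 4 CTRL, 7.42 ± 1.48 for the 5 Chemo, 8.84 ± 2.21 for the 5 MC, 8.71 ± 2.57 for the 6 MC + Chemo and 7.72 ± 2.52 for the 4 Lean libraries. The brown score was 4.55 ± 1.41, 4.22 ± 0.63, 7.88 ± 4.72, 6.15 ± 2.72 and 5.02 ± 1.59 in the same order. The SD of the MC brown score was above 2 times that of its white score.

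The 2 scores did not order the tumors alike. In MC 41 and MC 6 the brown score was above the white score by 2.18 and 1.69, with 532 and 462 Ucp1 counts per 100 Adipoq counts. MC + Chemo 52 and MC + Chemo 5 had brown scores 1.80 and 1.78 below the white score and 29.3 and 30.2 Ucp1 counts per 100 Adipoq counts, so Adipoq exceeded Ucp1 there. Lean 21 and MC + Chemo 47 had the third and sixth highest white scores (10.20 and 9.26) with Ucp1 at 13.1 and 11.6, below the median of all libraries. The brown score was also above the white score in CTRL 17, CTRL 44 and MC + Chemo 25, by 0.65, 0.40 and 0.19, where the white score was 3.98 to 6.08. The plot of one score against the other shows these sets of tumors apart.

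**Figure D2:**
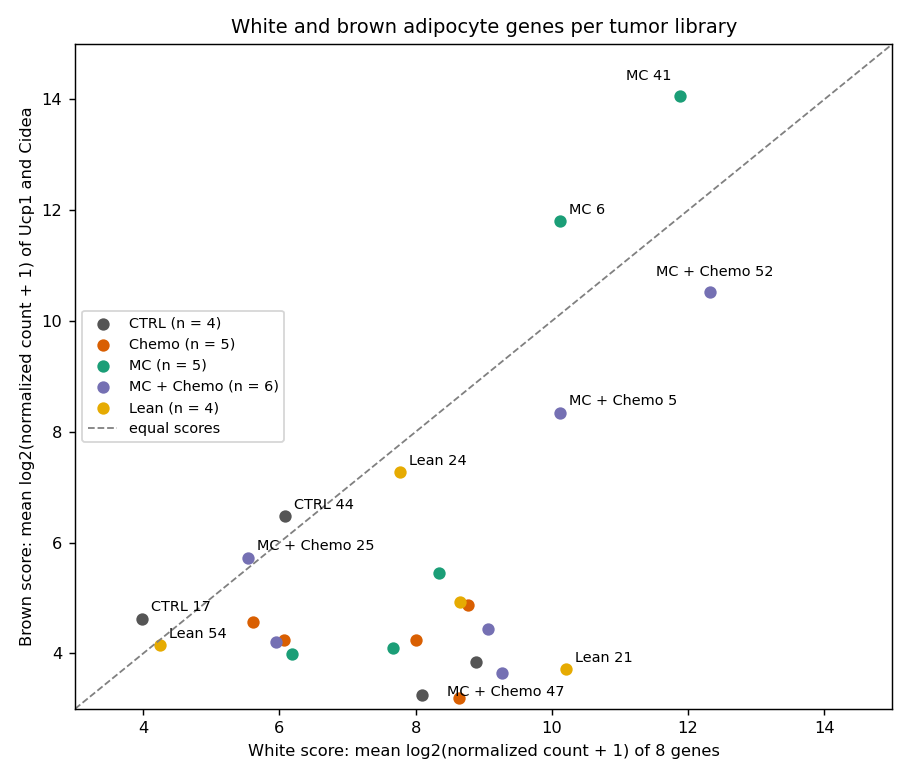
White score (mean log2 of the normalized count plus 1 over 8 genes) against brown score (the same over Ucp1 and Cidea) for 24 libraries, coloured by group, with a dashed line at equal scores. MC 41 and MC 6 lie above the line at high values of both, MC + Chemo 52 and MC + Chemo 5 below it, and Lean 21 and MC + Chemo 47 have high white and low brown scores.

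Across the 24 libraries, the Spearman correlation of the 28 pairs of white genes had a median of 0.93 (0.83 to 0.98). For Ucp1 with Cidea it was 0.88. For the 16 pairs of a white with a brown gene it was 0.22 (0.09 to 0.36). These are descriptions without a test. The points share library depth and host tissue content, and in bulk tumors fewer adipocytes and less RNA per adipocyte cannot be told apart.

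Other genes whose order over the 24 libraries was most like that of Adipoq were found among 15019 genes. The 10 nearest had Spearman correlations from 0.95 to 0.97 and were Car3, Cat, Adig, Dbi, B3galt2, Slc7a10, Cd36, Gstz1, Plin4 and Pnpla2. Car3 (0.97), a carbonic anhydrase abundant in fat and muscle, ran from 35.5 in CTRL 17 to 43114 in MC + Chemo 52. Pnpla2, the lipase that starts triglyceride breakdown, ran from 131 in CTRL 17 to 9447 in MC 41. The fatty acid transporter Cd36 ran from 25.1 to 3272, and the droplet coat gene Plin4 from 0.96 to 3714. Of these 10 genes, 4 were on the lists of fat genes used here.

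The genes most like Ucp1 were of another kind. The 10 nearest had correlations of 0.78 to 0.83 and were Mapt, Celf3, Bag6, Ndufa8, Nfe2l1, Ubxn1, Dnaja2, Crls1, Ube2m and Th, and 0 of them was on a list used here. Mapt (0.83), which encodes tau, ran from 12.5 to 438 with its highest level in MC 41. Ndufa8, a subunit of respiratory complex I, reached 2017 in MC 41 from a lowest level of 349, and Crls1, the cardiolipin synthase of mitochondria, reached 453 there from 52.1. Celf3, Bag6 and Th, the catecholamine synthesis enzyme, were instead highest in CTRL 44, at 91.0, 1420 and 199. Since Ucp1 was low in 20 of 24 tumors, these rank correlations depend largely on the order among low values.

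Further brown fat genes were read from a list of 23, of which 21 were in the table. The 3 with the highest mean over the libraries, Cox8b, Fabp3 and Cox7a1, are also expressed in heart and skeletal muscle. Cox8b, a subunit of cytochrome c oxidase, was 7868 in MC 41, 1659 in MC 6, 828 in MC + Chemo 52 and 298 in MC + Chemo 5, with a median of 8.36, so the mean rests on few tumors. By median Ebf2 (139), Dio2 (132) and Letmd1 (108) were higher. Fabp3, a fatty acid carrier, and Cox7a1, another oxidase subunit, were 5847 and 4872 in MC 41 against medians of 12.9 and 19.3. Cox8b was also 312 in MC + Chemo 43, where Ucp1 was only 18.6. The 15 brown genes not shared with striated muscle were therefore looked at as a group, chosen after their values were seen. Of these, 13 were highest in MC 41 and 11 were highest there and second in MC 6. The shares of all murine genes with these orders are not given here.

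Several of these 15 genes were almost absent elsewhere. Otop1, a proton channel of brown fat, was 760.0 in MC 41, 144 in MC 6, 88.9 in MC + Chemo 52 and 13.7 in MC + Chemo 5, and at most 13.4 in the other 20 libraries (median 0.83). Slc27a2, a fatty acyl-CoA synthetase, was 291, 63.5, 23.8 and 5.34 in the same tumors and at most 7.72 in the others (median 0). Elovl3, a fatty acid elongase of brown fat, was 443, 42.9, 22.9 and 1.53, with a highest level of 10.54 elsewhere. MC 6 was above each of the other 20 libraries for 11 of the 15 genes, MC + Chemo 52 for 7 and MC + Chemo 5 for 1. The other 20 libraries were set apart by their Ucp1 level. The shares of all murine genes above those 20 are not given here, so these counts are a description only. The transcription factor genes Zic1 and Lhx8 did not follow, since Zic1 was highest in CTRL 17 (181) and Lhx8 in MC + Chemo 52 (63.4). Ebf2 and Nrtn in MC 6 (227 and 12.7) were below Chemo 33 (232 and 20.2). Dio2 in MC + Chemo 52 was 86.3, below the median of the other 20 libraries (132). Slc27a2 and Elovl3 did not pass the filter on low counts among the libraries on the high fat diet.

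Skeletal muscle markers were high in some of these tumors. The mean log2 level of 20 markers was 10.91 in MC 41 and 10.60 in MC + Chemo 5, and also 11.37 in MC + Chemo 43, 8.89 in MC 48, 6.81 in Chemo 30 and 6.73 in MC + Chemo 47. It was 3.86 in MC 6 and 4.59 in MC + Chemo 52, and 2.95 to 5.19 in the remaining libraries. Acta1, the skeletal actin gene, was 12262 in MC 41 and 34.9 in MC 6, where Ucp1 was 5396. In MC + Chemo 43 Acta1 was 18509 and Ucp1 18.6. High Ucp1 thus occurred with and without muscle transcripts, and high muscle transcripts with and without Ucp1, as the plot of the 2 scores shows. In the 24 libraries 0 to 4 of the 20 markers were at 0, and the part of muscle transcripts in these results was not tested.

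**Figure D3:**
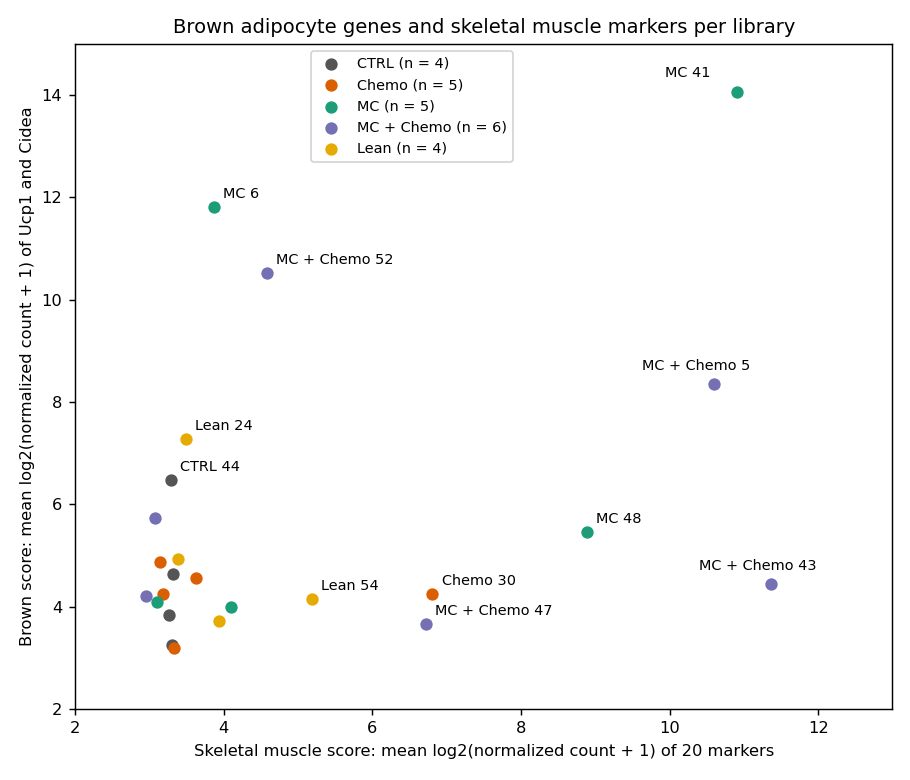
Skeletal muscle score (mean log2 of the normalized count plus 1 over 20 markers) against brown score (the same over Ucp1 and Cidea) for 24 libraries, coloured by group. MC 41 and MC + Chemo 5 are high on both axes, MC 6 and MC + Chemo 52 on the brown axis, and MC + Chemo 43 and MC 48 on the muscle axis.

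Group differences were tested by the edgeR quasi-likelihood F test, with p adjusted over all genes by the method of Benjamini and Hochberg, and by DESeq2 as the alternative. The comparisons of Chemo, MC, MC + Chemo and Lean share the 4 CTRL libraries, so their values are not independent of each other. Fold changes are given on the log2 scale as the first group minus the second, and each carries a standard error (SE). The SE was derived as the absolute edgeR log2 fold change divided by the square root of its F value.

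The first comparison asked how chemotherapy alone differed from vehicle. The members' median log2 fold change was 0.10, with 6 of 10 higher in Chemo, against −0.00 and 49.7% of all genes. Adipoq was 366 ± 322 (SD, n = 5) after Chemo and 198 ± 191 (n = 4) without it, and its log2 difference was 0.87 ± 1.31 (SE). Ucp1 was 19.2 ± 9.48 and 33.4 ± 34.4, a log2 difference of −0.75 ± 1.82. Without CTRL 17 the members' median was −0.27. With edgeR 0 of 10 members passed an adjusted p of 0.05, as did 0% of the 15011 genes tested, and 0 members and 680 of all genes were below an unadjusted p of 0.05. DESeq2 called 0 members and 0.132% of all genes. In 0 members did the libraries of the 2 groups lie apart, against 1.39% of all genes.

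Between MC and CTRL all 10 members had a higher fitted level in MC. The level of Ucp1 was 6537 ± 11785 (SD, n = 5) with MC and 33.4 ± 34.4 (n = 4) with vehicle, which gave a log2 difference of 7.65 ± 2.22 (SE). Cidea was 2643 ± 4654 and 33.9 ± 39.99, a log2 fold change of 6.34 ± 1.89. The white genes had smaller differences, with a median of 2.38. Among them Cidec had 3.65 ± 1.45, Plin1 3.32 ± 1.44, Fabp4 2.82 ± 1.25, Adipoq 2.80 ± 1.40 and Retn 1.16 ± 1.21.

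With edgeR 0 of 10 members passed in MC against CTRL, as did 0% of all genes, and the adjusted p of both Ucp1 and Cidea was 0.242. At an unadjusted p below 0.05 there were 6 members (Plin1, Cidec, Fabp4, Lpl, Ucp1 and Cidea) and 1767 of the 15011 genes. DESeq2 called Ucp1 (adjusted p 0.00278) and Cidea (adjusted p 0.0108), 2 of 10 members, against 1.76% of all genes. In 0 members did the libraries of MC and CTRL lie apart, against 2.09% of all genes.

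Both DESeq2 calls depended on single tumors, in fits added after the calls were seen. Without MC 41 DESeq2 called 0 members and 0.0241% of all genes, with adjusted p values of 0.434 for Ucp1 and 0.589 for Cidea. Without MC 6 it called 0.0946% of all genes and gave neither gene an adjusted p, so neither could be called. Without CTRL 17 or CTRL 70 it called Ucp1 alone, with Cidea at 0.0652 and 0.0507 and 0.0562 and 0.16% of all genes called. The loss of calls was thus not limited to the members. In the edgeR fit the members' median was 2.81 with all libraries and 1.33 without MC 41, and the log2 fold change of Lep then was −0.038. The log2 fold change of Ucp1 was 5.41 without MC 41 and 8.59 without CTRL 44, which the plot of left-out libraries shows beside Adipoq. The median was 1.69 without the 3 libraries that had the additional cleanup and 2.43 without CTRL 17.

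**Figure D4:**
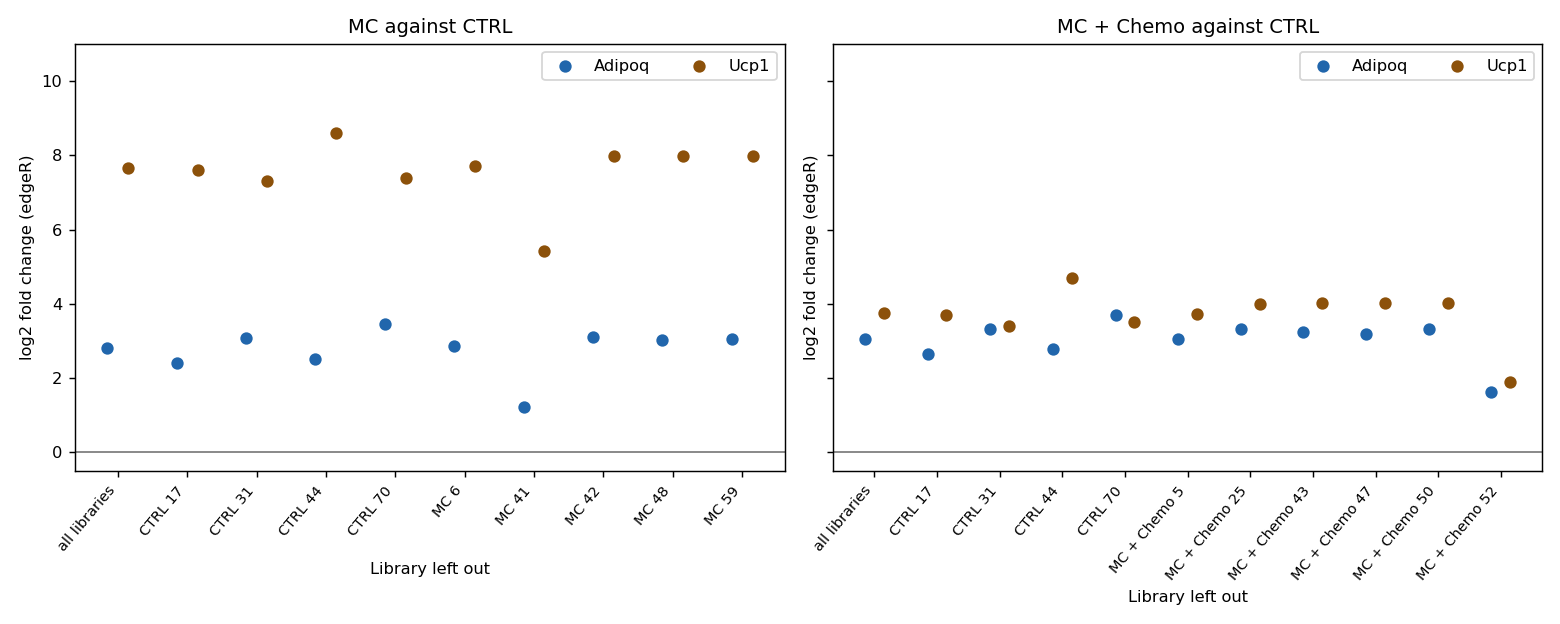
edgeR log2 fold change of Adipoq (blue) and Ucp1 (brown) in MC and in MC + Chemo against CTRL, with all libraries and with each library of the 2 groups left out in turn. The values lie closest to 0 without MC 41 (Adipoq 1.23, Ucp1 5.41) and without MC + Chemo 52 (Adipoq 1.63, Ucp1 1.90).

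In MC + Chemo all 10 members were again fitted above CTRL. Their median log2 difference was 2.79, against 0.01 for all genes. The white and brown genes had medians of 2.69 and 3.28. Adipoq was 1693 ± 2697 (SD, n = 6) against 198 ± 191, a log2 fold change of 3.06 ± 1.40 (SE). Cfd had 3.14 ± 1.36, Ucp1 3.76 ± 1.85, Cidea 2.79 ± 1.60 and Lpl 0.75 ± 0.74. With edgeR 0 of 10 members passed, as did 0% of all genes, and 5 members (Adipoq, Cidec, Cfd, Retn and Fabp4) and 1867 of the 15011 genes were below an unadjusted p of 0.05. DESeq2 called 0 members and 1.14% of all genes, and in 0 members did the libraries lie apart, against 2.54% of all genes. Without MC + Chemo 52 the members' median was 1.40, and without CTRL 17 it was 2.44.

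The added moringa concentrate was also compared with Chemo alone, using the same 6 MC + Chemo libraries as the comparison with CTRL. The members' median in MC + Chemo against Chemo was 2.56, with all 10 higher, against 0.02 for all genes. Retn was 301 ± 458 (SD, n = 6) against 33.99 ± 24.7 (n = 5), a log2 fold change of 3.12 ± 1.17 (SE), and Ucp1 had 4.50 ± 1.76. With edgeR 0 of 10 members passed, as did 0% of all genes, and 6 members (Cidec, Cfd, Retn, Fabp4, Ucp1 and Cidea) and 1647 of the 15011 genes were below an unadjusted p of 0.05. DESeq2 called 0 members and 0.294% of all genes, and in 0 members did the libraries lie apart, against 1.33% of all genes. Without MC + Chemo 52 the median was 1.15.

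The interaction term asked whether the difference made by MC was the same with and without chemotherapy. Its median over the members was −0.59, with −3.15 ± 2.37 (SE) for Ucp1, −2.78 ± 2.13 for Cidea and 1.95 ± 1.62 for Retn. Both edgeR and DESeq2 called 0 members and 0% of all genes, and 0 members and 1031 of the 15011 genes were below an unadjusted p of 0.05. The median was 0.90 without MC 41.

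Lean against CTRL compared lean hosts without an intervention with obese hosts given weekly saline, so diet and injection differed together. The members' median log2 fold change was 1.05, with 9 of 10 higher in Lean, against −0.01 for all genes. Lep was the exception, at 31.1 ± 35.1 (SD, n = 4) in the lean and 36.2 ± 33.8 (n = 4) in the obese mice, and differed by −0.23 ± 1.40 (SE) on the log2 scale. Retn had 1.99 ± 1.33, Cfd 1.82 ± 1.41, Adipoq 1.48 ± 1.40, Ucp1 0.93 ± 1.76 and Lpl 0.21 ± 0.80. With edgeR 0 of 10 members passed, as did 0% of the 15029 genes tested, and 0 members and 468 of all genes were below an unadjusted p of 0.05. DESeq2 called 0 members and 0.00601% of all genes, and in 0 members did the libraries lie apart, against 2.93% of all genes. Without Lean 21 the median was 0.32, without CTRL 17 it was 0.83, and without Lean 24 Ucp1 had −0.45 and Cidea −0.91.

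**Figure D5:**
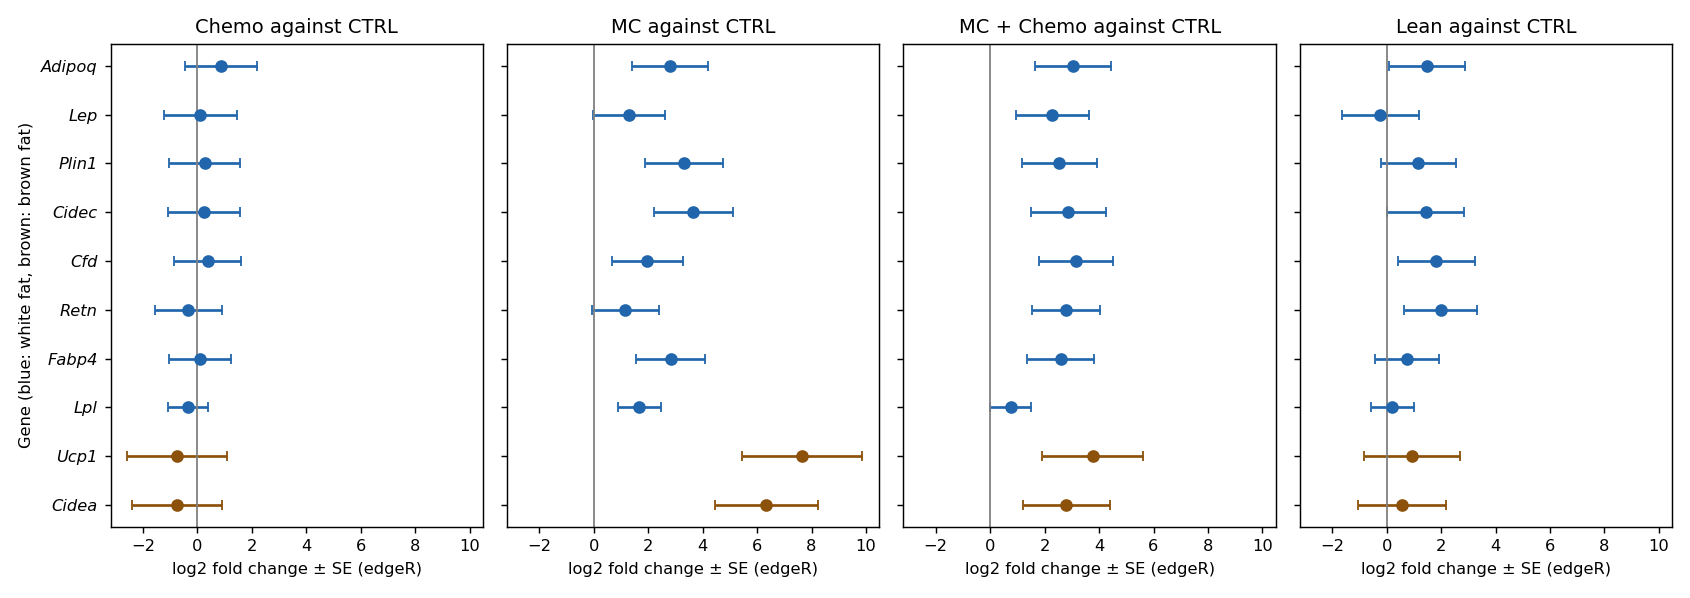
edgeR log2 fold change of each gene against CTRL, with bars of 1 SE, for Chemo, MC, MC + Chemo and Lean (blue for white, brown for brown fat genes). In MC the values of Ucp1 (7.65) and Cidea (6.34) lie to the right of the white genes (1.16 to 3.65), and in Chemo and Lean most bars cross 0.

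Two-sided exact permutation tests of the log2(normalized count + 1) of each member gave 0 of 50 p values below 0.05 over 5 comparisons. The lowest was 0.151, for Cfd in MC against CTRL. Such a test cannot go below 0.00794 for 5 against 4 libraries, 0.00476 for 6 against 4, 0.0286 for 4 against 4 and 0.00216 for 6 against 5.

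The wider lists of fat genes were read in the same fits. Among 17 genes of lipid droplets and lipolysis, of which 16 were tested by edgeR, the median log2 fold change in MC was 2.69 and all 16 were higher. DESeq2 called 6 of them, and it called 7 of 25 genes of lipid and glucose uptake, lipogenesis and adipokines (median 2.57), against 1.76% of all genes. Scd1, the stearoyl-CoA desaturase, was 28599.5 in MC 41 and 6648 in MC 6 with a median of 910 over all libraries, and the fatty acid synthase gene Fasn was 17894 and 3907 with a median of 209. The monoglyceride lipase gene Mgll (median 583) and the acyl-CoA synthetase gene Acsl1 (median 364) were also highest in MC 41, at 7160 and 9364. Without MC 41 DESeq2 called 0 genes of both lists and 0.0241% of all genes. Without CTRL 17 it called 1 droplet gene and 0 of the other list (0.0562% of all genes). Without CTRL 70 it called 1 gene of each (0.16%). The counts were 1 and 2 without CTRL 44 (0.328%) and 3 and 4 without CTRL 31 (1.08%). They were 11 and 9 without MC 42 (3.7%), 9 and 8 without MC 48 (2.41%) and 9 and 8 without MC 59 (2.86%).

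Of the brown fat list DESeq2 called 12 of 21 genes in MC, all higher, against 1.76% of all genes. Among the 12 were 5 of the 6 shared with striated muscle. Without MC 41 it called 1 of the 21, without CTRL 17 it called 3 and without CTRL 70 it called 4. Of these calls 1, 3 and 3 were of genes shared with striated muscle. It called 6 without CTRL 44, 9 without CTRL 31, 17 without MC 42, 14 without MC 48 and 16 without MC 59. In the same order 5, 5, 6, 6 and 6 of these were shared genes. The counts of the brown fat list rose with the share of all genes called in these fits, from 0.0241% without MC 41 to 3.7% without MC 42. It also called 15 of 20 skeletal muscle markers in MC and 17 of 20 in MC + Chemo (1.14% of all genes). In MC it called 0 of the 20 without MC 41, CTRL 17, CTRL 44 or CTRL 70, and 2 without MC 6 (0.0946% of all genes). It called 4 of the 20 without CTRL 31, 18 without MC 42, 10 without MC 48 and 17 without MC 59. Without MC 6, 12 of the 21 brown fat, 7 of the 17 droplet and 5 of the 25 uptake and lipogenesis genes had no adjusted p, so counts of these lists are not given for that fit. In MC + Chemo it called 1 brown fat gene, higher and shared with striated muscle, and 1 gene of uptake and lipogenesis, lower. In Chemo it called 1 gene of the latter list, lower (0.132% of all genes), and in Lean 0 genes of any of these lists (0.00601%). With edgeR 0 genes of any list passed in any comparison. At an unadjusted edgeR p below 0.05 in MC there were 14 of 16 droplet and 14 of 25 uptake and lipogenesis genes tested. There were also 16 of 19 brown fat genes and 20 of 20 muscle markers, against 1767 of all 15011 genes.

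Lists of other adipose traits gave medians nearer to 0 in MC. The median log2 fold change there was 0.90 for 9 adipocyte regulators, −0.37 for 8 tested genes of beige fat and creatine cycling and −0.14 for 9 markers of preadipocytes and adipose stroma. Higher in MC were 8, 3 and 4 of these genes in the same order. At an unadjusted edgeR p below 0.05 there were 3, 1 and 0, against 1767 of all 15011 genes. DESeq2 called 0 genes of the 3 lists, against 1.76% of all genes. Lists of 8 or 9 genes are too short to show a share below that. Cebpa, a regulator of adipocyte differentiation, was 1601 in MC 41 and 866 in MC + Chemo 52 with a median of 273, while Cebpb and Cebpd were within 173 and 923 in all libraries. The creatine kinase gene Ckb, the transferase gene Gatm and the beige marker Tnfrsf9 had medians of 523, 114 and 121 and were 608, 83.4 and 66.2 in MC 41. The progenitor markers Ly6a, Cd34 and Pi16 had medians of 2496, 818 and 722 and were highest in CTRL 17.

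Markers of the other host cells were given the same tests. The 20 skeletal muscle markers had a median log2 fold change of 6.05 in MC, 6.42 in MC + Chemo, 1.74 in Chemo and 0.93 in Lean, against 2.38, 2.69, 0.17 and 1.30 for the 8 white genes. The median log2 fold change in MC was 0.56 for 12 endothelial, −0.28 for 13 macrophage, 0.36 for 7 keratinocyte and 0.66 for 6 Schwann cell and nerve markers. DESeq2 called 0 of them, against 1.76% of all genes. The sebaceous gland list had 1 gene in the table, Krt79, which did not pass the filter and reached 24.5 in MC 41. The summed endothelial markers were 4534 to 5404 in MC and 693 to 4847 in CTRL, and the macrophage markers 12402 to 36934 and 26731 to 31894. The lowest macrophage sum was that of MC 6.

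Human namesakes of 6 members were present in the table of human transcripts. ADIPOQ had 389 human counts in all libraries, equal to 1.62% of the murine Adipoq counts, and UCP1 had 1386, equal to 3.74%. Of these UCP1 counts 1122 were in MC 41, where murine Ucp1 had 29996, and the median library had 0. PLIN1, FABP4, LPL and CFD had 116, 205, 318 and 897 human counts, equal to 1.01, 0.109, 0.496 and 0.854% of the murine ones. How reads that match both genomes were assigned is not given in the sources used here.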

How the data were processed

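Tumor RNA was sequenced by the QuantSeq 3′ method with forward reads. The authors aligned the reads with BlueBee software, and the read counts per gene were used as deposited. The authors also deposited a normalized signal, the counts divided by DESeq2 size factors over 24 libraries. Per the submitters' processing notes the build was GRCm38 and DESeq2 was version 1.22.2. Counts were tested in R 4.3.3 with edgeR 4.0.16 (which uses limma 3.58.1) by its quasi-likelihood F test, with TMM scaling, filterByExpr and Benjamini-Hochberg adjustment. It was fitted to the 20 libraries on the high fat diet, and to all 24 for Lean against CTRL. DESeq2 1.42.0 was the alternative. Exact permutation tests and scores used log2 of the normalized count plus 1. The fits were tested on simulated data with a common spread for all genes and no outlying tumors. The members varied far more, so that test does not cover them. Groups came from the labels. Replicates are tumors of separate mice.

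The 10 members, the other gene lists and the tests were chosen with earlier results of these data known. Genes eligible for naming are the members, the 3 most abundant genes of each list, and the 10 genes with the highest Spearman correlation to Adipoq and to Ucp1; other names were chosen after their values were seen. Whether counting used the strand is not given in the sources used here.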

Additional observations from a re-analysis of the deposited data

Results flagged for a closer look

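In 20 of 50 combinations of a member and a group, 1 library lay far from the others of its group on the scale of normalized counts, and in 0 of 50 on the log2 scale. The scale of normalized counts, on which the levels are reported, was chosen after the log2 result was seen. For normally distributed values chance flags about 1 in 20 groups. The normalized counts are skewed, the rate for them was not computed, and the members are correlated with each other. MC 41 was far above the other MC libraries for Adipoq (5117), Lep (308), Plin1 (3996), Cidec (2938), Lpl (15414), Ucp1 (27205) and Cidea (10765). MC + Chemo 52 was far above the other MC + Chemo libraries for all 10 members, with Adipoq at 7069, Lep at 887, Plin1 at 2364, Cidec at 1811, Cfd at 35422, Retn at 1206, Fabp4 at 53119.7, Lpl at 7713, Ucp1 at 2069 and Cidea at 1042. Lean 24 was far above the other Lean libraries for Ucp1 (173) and Cidea (137), and CTRL 44 above the other CTRL libraries for Cidea (93.5).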

How the results depend on the processing

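Under DESeq2 2 members were called in MC against CTRL in place of 0, and these were 0 to 2 with 1 library left out (without MC 6 neither Ucp1 nor Cidea had an adjusted p), an alternative chosen after seeing the data. The other settings (RLE factors, no filter on low counts, only the compared groups, all 24 libraries, MC + Chemo 5 under MC, or without the 3 libraries with an additional cleanup) kept each count of called members at 0, and a pseudocount of 0.5 left 0 of 50 exact tests below a p of 0.05. Without those 3 libraries the interaction changed sign for the members' median (0.51) and for Adipoq (0.56), Plin1 (0.44), Cidec (0.45), Fabp4 (0.73) and Lpl (0.28). MC 41 is 1 of the 3, and without it alone the same terms also changed sign. The median was then 0.90, Adipoq 0.95, Plin1 0.83, Cidec 0.86, Fabp4 1.05 and Lpl 0.51. The cause was not tested. Each fit called 0 members by edgeR with any 1 library left out. No paired analysis was possible because the groups share no replicate number.

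With 1 library left out, the log2 fold changes that crossed 0 ranged as follows. In Chemo against CTRL the median ran from −0.27 to 0.76, Lep from −0.54 to 0.69, Plin1 from −0.11 to 1.52, Cidec from −0.20 to 0.72, Cfd from −0.10 to 1.62, Retn from −0.71 to 1.49, Fabp4 from −0.25 to 0.84, Ucp1 from −1.09 to 0.19 and Cidea from −1.07 to 0.45. In MC against CTRL Lep ran from −0.038 to 1.87. In Lean against CTRL Lep ran from −1.28 to 0.34, Cidec from −0.048 to 1.93, Fabp4 from −0.013 to 1.48, Lpl from −0.44 to 0.54, Ucp1 from −0.45 to 1.86 and Cidea from −0.91 to 1.75. In the interaction the median ran from −1.98 to 0.90, Adipoq from −2.04 to 0.95, Lep from −1.14 to 2.21, Plin1 from −2.29 to 0.83, Cidec from −2.38 to 0.86, Cfd from −0.52 to 1.65, Fabp4 from −1.92 to 1.05 and Lpl from −1.26 to 0.51. In MC, in MC + Chemo and in MC + Chemo against Chemo the other members kept their sign. Single tumors moved the log2 fold changes widely, as for Ucp1 in MC, at 7.65 with all libraries and 5.41 without MC 41. With 4 to 6 tumors per group, differences of the white and of the brown genes could not be separated from the spread between tumors.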
